A study of Mus musculus with 4 samples.

Results

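Cd47 and Mecom were examined as mouse genes that each had 4 narrow HOXA5-FLAG peaks present in both replicates of a chromatin immunoprecipitation sequencing (ChIP-seq) experiment. ChIP-seq isolates DNA cross-linked to a protein with an antibody and counts where the sequenced fragments pile up. The tissue was whole lung of E15.5 mouse embryos (E for embryonic day) with the genotype Hoxa5FLAG/FLAG, in which both copies of the endogenous Hoxa5 gene carry a FLAG tag. There were 2 anti-FLAG immunoprecipitates (replicates 1 and 2) and 2 inputs of the same genotype. The inputs were not analysed here, and none of these libraries was an untagged control. The titles of the libraries carry the abbreviation wt, and the genotype field was followed. Whole lung holds many cell types, so the cells in which a site was occupied were not resolved.

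The peaks were chosen by their position and by their presence in both lists. A row of either list was taken when its summit, the base of highest signal, lay inside the annotated span of Cd47 or Mecom. It was also taken when its summit lay within 100 kb with that gene as the nearest protein-coding gene. This gave 17 of the 7121 rows in both lists. Replicate 1 had 9 of its 4289 rows there, and replicate 2 had 8 of its 2832. Of these, 16 rows paired into 8 narrow shared peaks, of 1643 in all. A shared peak is one that overlaps between the lists by at least 1 bp, and it is narrow when each member is at most 1000 bp long. The 2 genes were thus chosen for the number of peaks they have, and the values below describe them without a test. The authors' peak caller gave each peak its fold enrichment and −log10 q, which rank peaks within 1 list, and no change between replicates is read from them. The read depth behind the peaks is unknown.

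HOXA5 is a homeodomain transcription factor that is made in the mesenchyme of the developing lung and trachea. Mice lacking it have malformed airways and often die at birth. Cd47 encodes a membrane glycoprotein of the immunoglobulin superfamily. It binds thrombospondin, associates with integrins, and restrains phagocytosis when it meets SIRPα on macrophages. Mecom encodes a zinc finger transcription factor needed by blood stem cells and is an oncogene in myeloid leukaemia. It is known to be transcribed from a distal start, which gives a long product with a PR domain (MDS1-EVI1), and from an internal start, which gives a shorter product without it (EVI1).

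Cd47 spans 49851328 to 49912503 on chromosome 16 in mm10 and is transcribed from the plus strand, with annotated starts at 49855654 and 49855661. Mecom spans 29951296 to 30509759 on chromosome 3 and is transcribed from the minus strand, with annotated starts at 30509759 and 30013204. These starts are the landmarks for the positions that follow. The 250 bases before one start of each gene are shown to let the sequence at the landmark be read. They come from RefSeq (GRCm38.p6) and are written 5′ to 3′ on the strand of the gene, and capitals mark the motif matches given below.
Cd47, chr16:49855404-49855653, plus strand: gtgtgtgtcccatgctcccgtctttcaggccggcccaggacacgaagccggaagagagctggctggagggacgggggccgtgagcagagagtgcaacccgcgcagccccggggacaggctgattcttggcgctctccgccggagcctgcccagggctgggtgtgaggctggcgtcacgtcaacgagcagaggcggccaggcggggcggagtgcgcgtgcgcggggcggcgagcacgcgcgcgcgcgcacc
Mecom internal start, chr3:30013205-30013454, minus strand: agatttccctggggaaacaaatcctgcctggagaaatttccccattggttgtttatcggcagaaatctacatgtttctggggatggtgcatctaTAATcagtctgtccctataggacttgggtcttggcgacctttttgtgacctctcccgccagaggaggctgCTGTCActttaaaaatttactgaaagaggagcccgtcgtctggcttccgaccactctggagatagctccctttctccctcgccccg

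Short motifs, 4 in all, were searched on both strands of these windows. TAAT and TAATTA are short homeodomain words, and the first lies inside the second. TGATTNAT is a word of HOX and PBX pairs, and TGACAG is a word of MEIS proteins. The window before the internal Mecom start held 1 TAAT and 1 TGACAG, the latter read on the opposite strand as CTGTCA. The Cd47 window and the window before the distal Mecom start held none of the 4. Among 32851 such windows in the table, 54.9% held TAAT, 15.9% held TGACAG, 4.84% held TAATTA and 2.82% held TGATTNAT. G and C made up 73.2% of the Cd47 window and 50.4% of the internal Mecom window, against a median of 52.4% over all windows. No peak overlapped any of these windows, and the sequence under the peaks themselves was not analysed here.

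At Cd47, 1 peak lay inside the gene and 3 lay together beyond its 3′ end. They are numbered here in the direction of transcription. Peak 1 had its summit at 49888393, which is 32.7 kb after the first start and 24.1 kb before the 3′ end of the gene. Peaks 2, 3 and 4 had their summits at 49951416, 49952192 and 49954121, which are 38.9, 39.7 and 41.6 kb beyond the 3′ end. All 3 fall inside the annotated span of Gm5486, an uncharacterised RNA gene (49925921 to 49970189). The next start on their far side in the promoter table is that of Gm19723, a long noncoding RNA gene, 1.71 kb from the summit of peak 4. Cd47 was the nearest protein-coding gene to all of them, although the assignment rests on distance alone.

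Peak 2 had the highest fold at Cd47 in both lists. It covered 49951241 to 49951746 in replicate 1 and 49951234 to 49951713 in replicate 2. Its fold enrichment was 6.79 in replicate 1 and 4.86 in replicate 2, with −log10 q of 41.8 and 20.2. It stood above 86.3% of replicate 1 peaks and 83.2% of replicate 2 peaks in fold. Peak 4 (49953951 to 49954301 and 49953989 to 49954283) was close behind in replicate 1, with folds of 6.62 and 4.40 and −log10 q of 37.3 and 17.1. Peak 3, between them, was the lowest of the 4 in both lists. It covered 49952024 to 49952530 and 49951990 to 49952379, with folds of 3.59 and 3.55 and −log10 q of 9.76 and 11.3. In replicate 1 it lay below the list median of 3.87, and in replicate 2 above the list median of 3.36. The peak inside the gene, peak 1 (49888255 to 49888578 and 49888210 to 49888527), had folds of 5.77 and 4.66 and −log10 q of 28.1 and 17.7. It stood above 80.5% of replicate 1 peaks and 80.6% of replicate 2 peaks.

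**Figure D1:**
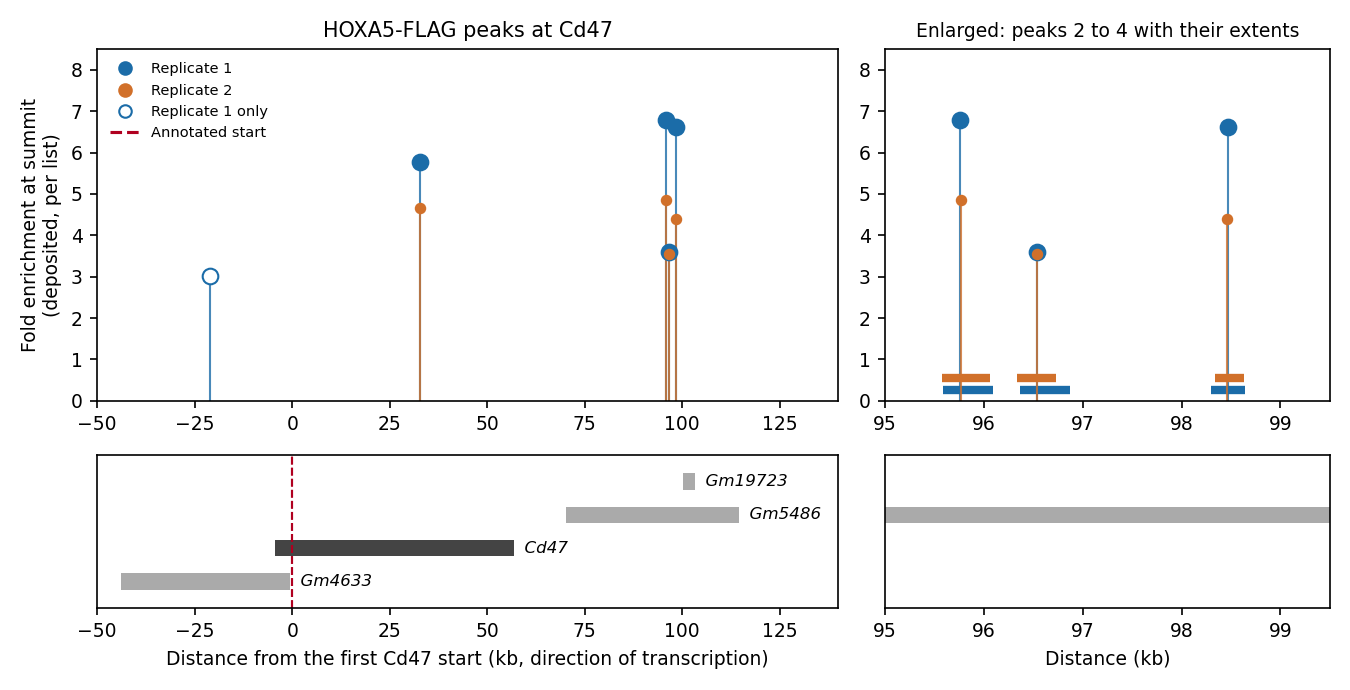
Fold enrichment at the summit (deposited values, vertical axis) against distance from the first Cd47 start in kb, with filled points for peaks in both replicates and an open point for the peak of replicate 1 alone. Bars below show annotated genes, dark for protein-coding, and the right panels enlarge peaks 2 to 4, with horizontal bars for the extent of each peak in each replicate. The 3 downstream peaks sit inside Gm5486, and peak 3 at 3.59- and 3.55-fold is the lowest of them.

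The spacing of the downstream Cd47 peaks was nearly identical in both replicates. Summits of peaks 2 and 3 lay 776 bp apart in replicate 1 and 764 bp in replicate 2. Those of peaks 3 and 4 lay 1929 and 1922 bp apart, so that the 3 summits spanned 2705 and 2686 bp. Peak 1 was 63.0 kb from peak 2 in both lists. Between the edges of peaks 2 and 3 were 277 bases without a call in replicate 1 and 276 in replicate 2. That is within the range of 200 to 500 bp to which, per the labels, the chromatin was sheared. Peaks 2 and 3 were called apart in both lists, and whether the same DNA fragments contributed to both was not tested.

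No other 3 neighbouring narrow shared peaks were as close as peaks 2 to 4. Of 1592 runs of 3 neighbours on the assembled chromosomes, the next tightest spanned 8.43 kb, and the median run spanned 2214 kb. Of 1613 neighbouring pairs, the pair of peaks 2 and 3 was the second closest, after one with summits 724 bp apart. Since the locus was picked out for holding several peaks, these ranks are descriptions.

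A further Cd47 peak was found in replicate 1 alone. It lay upstream, at 49834295 to 49834712 with its summit 16691 bp outside the gene and inside the span of Gm4633. Its fold was 3.03 and its −log10 q 5.42, and 24.9% of replicate 1 peaks had a lower fold. Replicate 2 had no row there. Cd47 thus had 5 rows in replicate 1, of which 4 had a partner, and 4 rows in replicate 2, all with a partner. At Mecom 4 of 4 rows had a partner in each list. Over all peaks of at most 1000 bp, 46% of those in replicate 1 and 75% of those in replicate 2 overlapped a peak of the other list. The rule asked for shared peaks, so nothing is read from the members' share.

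At Mecom, 3 peaks lay inside the gene and 1 beyond its 3′ end, spread over a much longer stretch. In the direction of transcription, peak 1 had its summit at 30182035, which is 327.7 kb after the distal start. Peak 2 had its summit at 30030670, which is 17.5 kb before the internal start and is the member peak nearest to any annotated start of its own gene. Peak 3 had its summit at 29968820, which is 44.4 kb after the internal start and 17.5 kb before the 3′ end. Peak 4 had its summit at 29880241, which is 71.1 kb beyond the 3′ end and inside Gm33206, a long noncoding RNA gene. The start of another long noncoding RNA gene, Mannr, was 10.8 kb from that summit. The stretch from the distal start to peak 1 held no row of either list.

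Peaks 3 and 4, at the 3′ side of Mecom, had the higher folds in both lists. Peak 4 (29879937 to 29880417 in replicate 1 and 29880066 to 29880408 in replicate 2) had a fold of 7.30 in replicate 1 and 4.55 in replicate 2, with −log10 q of 44.5 and 17.2. It stood above 89.0% and 78.6% of the peaks in the respective lists. Peak 3 (29968554 to 29969384 and 29968562 to 29969057) had folds of 7.16 and 4.71 and −log10 q of 40.9 and 24.1, above 88.1% and 81.5% of peaks. Which of the 2 was higher differed between the lists. Peak 1 (30181886 to 30182271 and 30181860 to 30182249) had folds of 4.12 and 3.35 and −log10 q of 13.6 and 7.10. It lay near the median of both lists. Peak 2 (30030331 to 30031244 and 30030436 to 30031218) had the lowest folds of all 8 peaks, 3.43 and 2.74, with −log10 q of 13.7 and 7.83. Only 38.0% of replicate 1 peaks and 25.1% of replicate 2 peaks were lower.

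**Figure D2:**
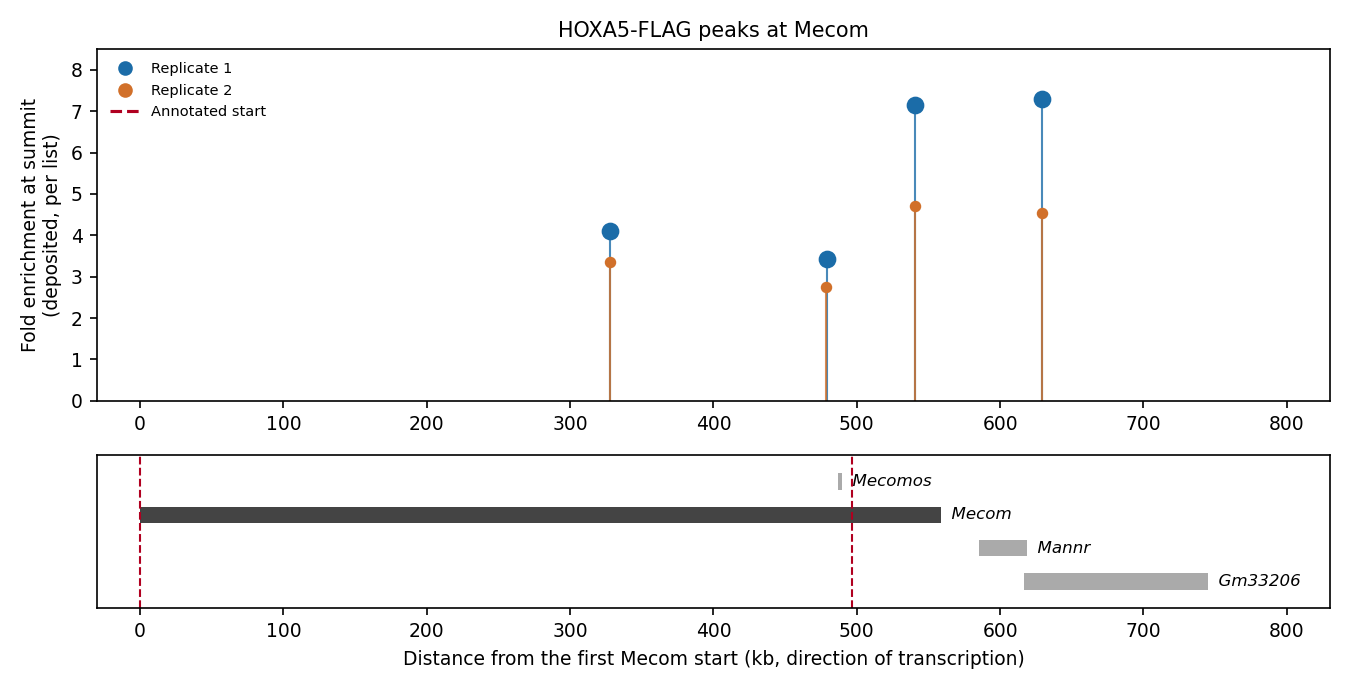
Fold enrichment at the summit (deposited values, vertical axis) against distance from the distal Mecom start in kb in the direction of transcription, with 1 point per replicate at each of the 4 shared peaks. Bars below show annotated genes, dark for protein-coding, and dashed lines mark both annotated Mecom starts. Peaks 3 and 4, at the 3′ side, reach 7.16- and 7.30-fold in replicate 1 and peaks 1 and 2 reach 4.12- and 3.43-fold.

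The Mecom peaks were widely spaced. Peaks 1 and 2 lay 151.4 kb apart in replicate 1 and 150.9 kb in replicate 2. Peaks 2 and 3 lay 61.9 and 62.2 kb apart, and peaks 3 and 4 lay 88.6 kb apart in both. From first to last the 4 summits covered 301.8 and 301.7 kb, against 65.7 kb at Cd47 in both replicates. The length of the peaks varied too. Mecom peak 2 was 914 bp long in replicate 1 and 783 bp in replicate 2, the longest of the 8 in both lists and just inside the limit of 1000 bp. Mecom peak 3 was 831 and 496 bp long, and the Cd47 peaks ranged from 295 to 507 bp.

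Set side by side, the same 5 peaks had the highest folds in both lists. They were Cd47 peaks 1, 2 and 4 and Mecom peaks 3 and 4, with 5.77- to 7.30-fold enrichment in replicate 1 and 4.40- to 4.86-fold in replicate 2. The order within these 5 differed between the lists. The remaining 3 ranged from 3.43 to 4.12 and from 2.74 to 3.55. The median over the 8 peaks was 6.20 in replicate 1 and 4.48 in replicate 2, beside 4.93 and 3.80 over all narrow shared peaks. None of the 8 came near the top of its list, where the highest folds were 58.1 and 25.6. The best rank by fold was 473 in replicate 1, for Mecom peak 4, and 476 in replicate 2, for Cd47 peak 2.

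**Figure D3:**
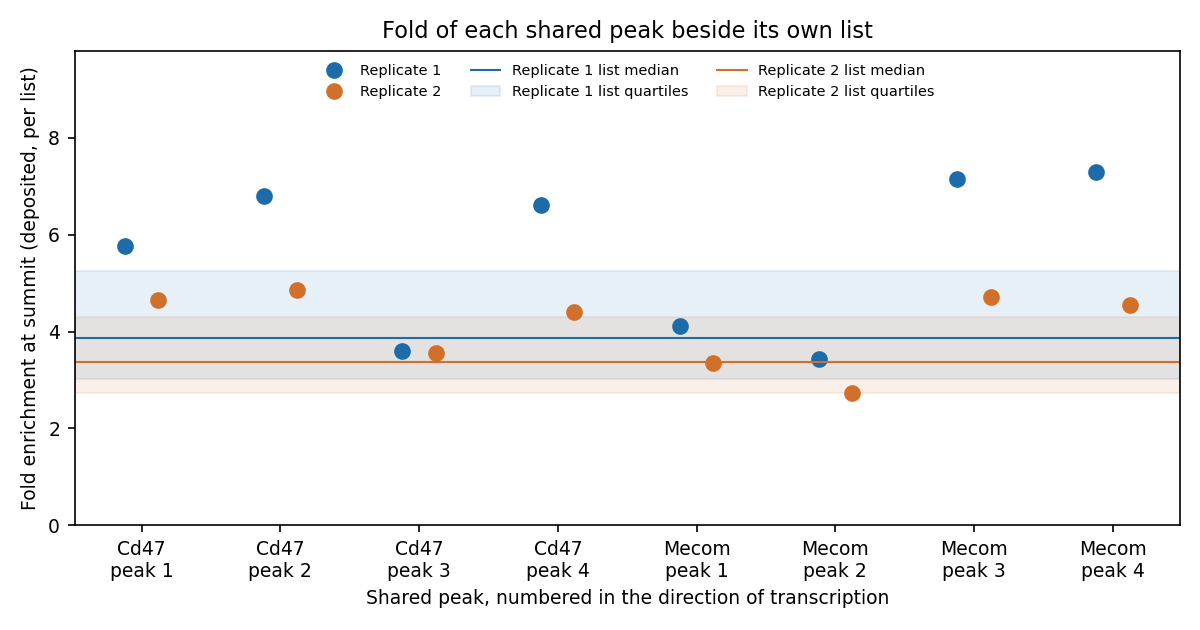
Fold enrichment at the summit (deposited values, vertical axis) of the 8 shared peaks, with 1 point per replicate. Lines give the median fold of each whole list (3.87 and 3.36) and bands its quartiles, and Cd47 peaks 1, 2 and 4 and Mecom peaks 3 and 4 lie above the band of their own list in both replicates.

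Summits agreed closely between replicates at 6 of the 8 peaks. At Cd47 the summits of the replicates lay 1, 9, 3 and 10 bp apart for peaks 1 to 4. At Mecom they lay 6 bp apart for peak 4 and 8 bp for peak 3. The other two Mecom peaks agreed less well, with 114 bp at peak 1 and 356 bp at peak 2. Over all narrow shared peaks the median was 22 bp (quartiles 6 and 64.5 bp), and 590 of 1643 (35.9%) agreed within 10 bp. The summits of Mecom peak 2 were farther apart than those of most narrow shared peaks, since 97.1% agreed at least as well. In replicate 1 its summit was at 30030670 and in replicate 2 at 30031026, although all 783 bases of the replicate 2 peak lay within the replicate 1 peak. The 2 Mecom peaks with distant summits were also the 2 with the lower folds, whereas Cd47 peak 3 joined a low fold to summits 3 bp apart.

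**Figure D4:**
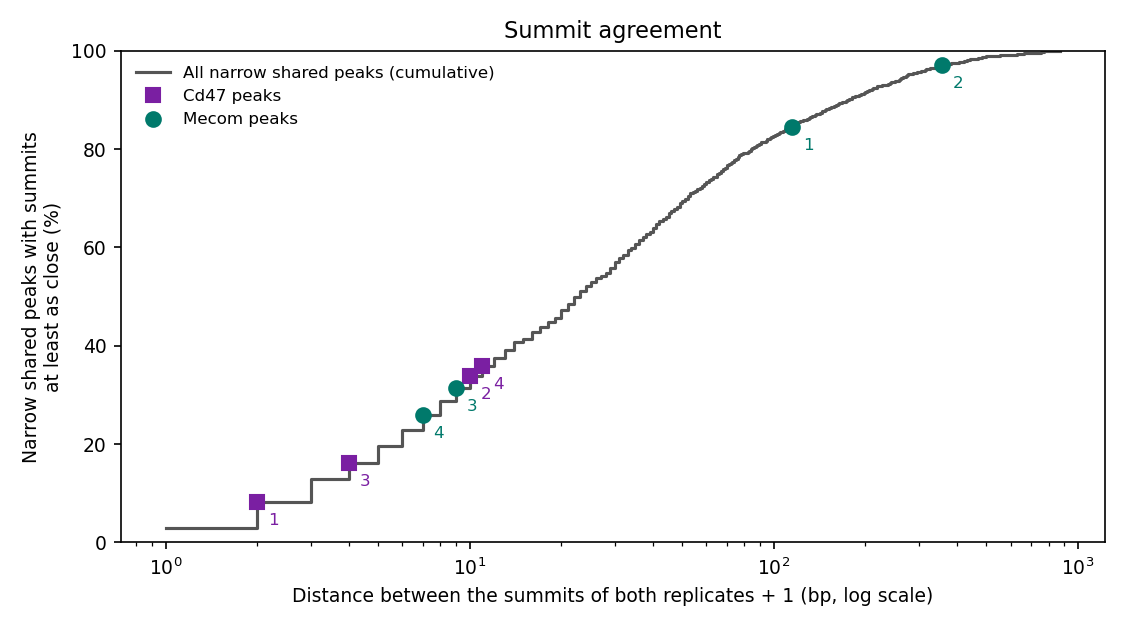
Percent of all 1643 narrow shared peaks whose replicate summits are at least as close (vertical axis) against the distance between summits plus 1 bp (log scale), with squares for Cd47 peaks and circles for Mecom peaks, numbered as in the text. The distance is 10 bp or less for 6 of the 8 peaks, and Mecom peaks 1 and 2 lie at 114 and 356 bp.

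The extent of the overlap is described here, although the peaks were chosen because they overlap, so it is no separate measure of agreement. The replicate 2 peak lay wholly within its replicate 1 partner at Cd47 peak 4 and at Mecom peaks 2, 3 and 4. As a share of the replicate 1 peak the overlap was smallest at Mecom peak 3, where 496 shared bases made up 59.7%. In bases it was smallest at Cd47 peak 1, with 273 bp. At Cd47 peak 3 the overlap of 356 bp was 70.2% of the replicate 1 peak and 91.3% of the replicate 2 peak. Every pair therefore overlapped by more than the 1 bp required.

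None of the 8 peaks lay within 1 kb of a start in the RefSeq promoter table. From the nearest start of their own gene they lay between 17.5 and 168.8 kb away. Starts of other genes were counted only where the RefSeq promoter table lists them. It lists none for Gm5486 or Gm4633. Nor does it for the RNA genes Mecomos (30019940 to 30023178), Gm52621 (29996293 to 30000247) and Gm10258 (30266835 to 30280195), all within Mecom. By the listed starts, the 3 downstream Cd47 peaks lay 4.41, 3.64 and 1.71 kb from the start of Gm19723. That was nearer than most, as 9.67%, 8.59% and 5.41% of narrow shared peaks were at least as close to a start. Mecom peak 1 was farther from a listed start than most, with 82.2% at least as close. The span of Gm10258, which has no listed start, lies nearer to Mecom peak 1 than the start used. The same holds for Mecomos at Mecom peak 2 and for Gm52621 at Mecom peak 3. The median over 1572 narrow shared peaks on chromosomes with starts in the table was 42.8 kb, and 62 of them (3.94%) were within 1 kb.

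Having 4 or more narrow shared peaks was rare among protein-coding genes, and the genes that had them covered much sequence. Of 21779 genes, 1017 (4.67%) had at least 1 narrow shared peak and 10 (0.0459%) had at least 4. Exactly 3 were found at 24 genes and exactly 4 at 7. Beside Cd47 and Mecom, the genes with 4 were Smg6, Bcas3, Limch1, Nfib and Robo2, and Wwox and Galntl6 had 5 and Lrmda 9. The number of bases that would be assigned to a gene, inside it or nearest to it within 100 kb, was 204.3 kb for Cd47 and 702.2 kb for Mecom. The median was 45.1 kb over all protein-coding genes and 590.8 kb over the 10 genes with at least 4 peaks. Cd47 had the smallest such stretch of the 10, and 5 of them had a smaller one than Mecom. Per 100 kb, Cd47 had 1.96 narrow shared peaks and Mecom 0.57, beside 0.0639 over all protein-coding genes. Both were chosen for their count, so nothing is read from the gap to that value. The other genes with 4 peaks had 1.69 (Smg6), 1.11 (Limch1), 0.96 (Nfib), 0.83 (Bcas3) and 0.235 (Robo2). Genes with 1 peak and a short stretch could be higher, such as Gpr84 at 12.2.

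**Figure D5:**
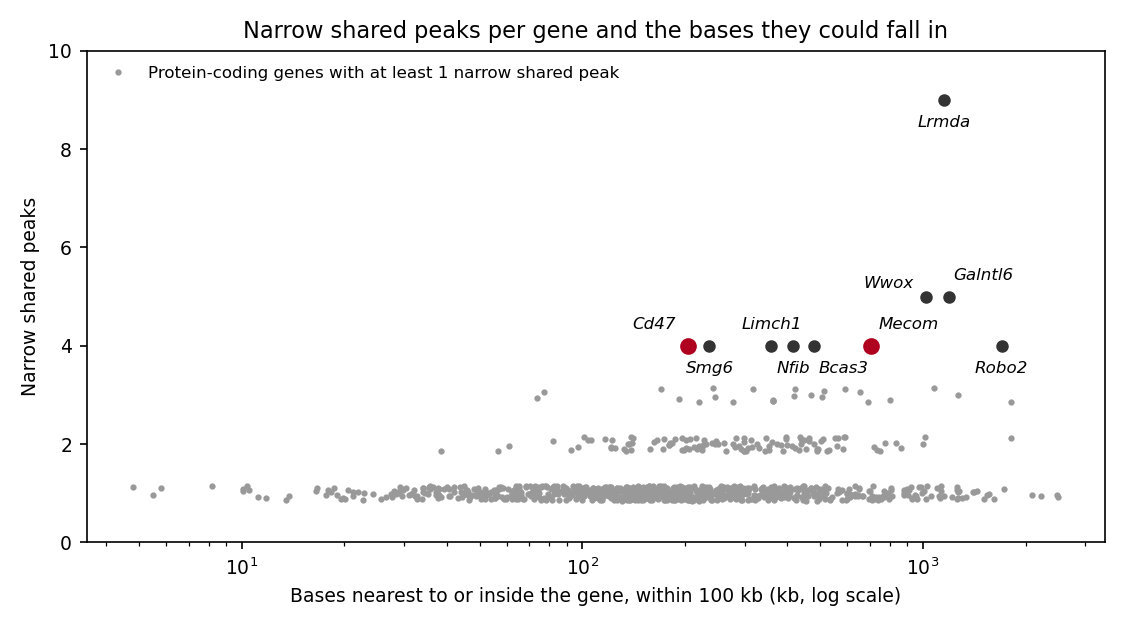
Number of narrow shared peaks per protein-coding gene (vertical axis, points below 4 spread slightly for display) against the bases inside the gene or nearest to it within 100 kb (log scale), for genes with at least 1 such peak. Genes with 4 or more are named, and Cd47, at 204.3 kb, lies leftmost among them.

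The genes with 4 peaks differed in where the peaks lay. Smg6, which encodes a nuclease of nonsense-mediated decay, was the most like Cd47 in distance from first to last summit, at 75.02 kb. All 4 of its peaks lay inside the gene, with folds of 2.60 to 6.65 in replicate 1 and 2.63 to 5.02 in replicate 2. Bcas3 was the most like Mecom in that distance, at 283.4 kb. Its 4 peaks were also inside the gene, with folds of 4.10 to 10.5 and 3.26 to 5.80 and summits at most 34 bp apart between replicates. At Limch1 and Nfib all 4 peaks were inside the gene, and at Robo2 3 of 4 were. Cd47, with 1 of 4 inside, had the fewest of the 7 genes.

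Neither gene had a narrow shared peak close by that belonged to another gene. Neighbouring narrow shared peaks had a median gap of 842.2 kb over the assembled chromosomes, and the next ones were 810.3 kb below Cd47 (nearest gene Myh15) and 2526 kb above it (Alcam). For Mecom they were 2351 kb below (Fndc3b) and 3259 kb above (Ttc14). A shared peak of 1639 bp, too long to be narrow, lay 667.5 kb above Mecom near Cldn11. Of the neighbouring protein-coding genes, Gm4802, Ift57, Bbx and Ccdc54 around Cd47 and Gm1527, Egfem1, Actrt3 and Mynn around Mecom had no narrow shared peak. Ift57 and Bbx each had 1 row in replicate 1 and none in replicate 2, and Egfem1 had 1 in each list at different places. The nearest rows that were not members were 213.1 kb from Mecom, with Egfem1 as nearest gene, and 234.8 kb from Cd47, with Ift57 as nearest gene. The farthest member was at 71.1 kb.

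Among 20 genes for ligands, partners and signalling proteins of CD47, 2 (10%) had a narrow shared peak, beside 4.67% of all protein-coding genes. This list too was chosen with earlier results of these data known, so nothing is read from the gap between these shares. Both genes with a peak encode thrombospondins. Thrombospondins are secreted matrix glycoproteins, and the product of Thbs1 is a ligand of CD47. Thbs1 had 2 such peaks outside the gene. The nearer, at 72.5 kb (chromosome 2, 118039083 to 118039713), had folds of 21.1 and 11.9 with summits 3 bp apart. The farther, at 82.1 kb (118029553 to 118029976), had 5.94 and 5.59. Thbs2 had 2 on chromosome 17, at 3.04 kb (14696843 to 14697530, folds of 7.89 and 4.75) and at 26.2 kb (14720268 to 14720706, 5.77 and 4.04). The other 18 genes had none. Among them were the thrombospondin genes Thbs3 and Thbs4, Comp, the receptor gene Sirpa and the integrin genes Itgav, Itgb1 and Itgb3.

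Among the genes counted from the PRDM family or known to act with MECOM, 26 in number, 3 had a narrow shared peak. Over all protein-coding genes the share was 4.67%. The count covers only part of the list, which was chosen with earlier results of these data known, so nothing is read from it. Prdm6, which encodes a PRDM protein of smooth muscle, had 2 inside the gene, with folds of 5.19 and 3.67 at one and 5.38 and 3.53 at the other. Smad3, whose product MECOM is known to bind, had 1 at 31.5 kb with folds of 10.7 and 5.38. Prdm13 had 1 at 81.3 kb with folds of 2.54 and 2.73, whose summits were 531 bp apart. Prdm16, the family member closest to Mecom, and the corepressor genes Ctbp1 and Ctbp2 had none. No gene counted in either list had 4 or more.

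Hoxa5 itself held 1 row in replicate 1 and none in replicate 2. A peak list does not check the tag or the antibody. Without the inputs or an untagged control, the 8 peaks cannot be told from signal that would appear without HOXA5-FLAG.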

How the data were processed

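ChIP-seq peak lists of 2 anti-FLAG immunoprecipitates of embryonic mouse lung were used, 1 list per library, so the authors called peaks per replicate. The submitters' processing notes name MACS3 3.0.1, Bowtie2 2.5.2, SAMtools 1.18, FastQC 0.12.1, bedtools 2.31.0, deepTools and Trim Galore, on mm10. Settings, control and region filters are not given in the sources used. The deposited fold enrichment is a ratio at the summit, and the deposited −log10 p and −log10 q belong to the same base. The deposited score was not used. Peak names within the second list carry a different replicate number, and the label was followed. No source says whether the replicates were separate litters or pools, so their agreement may be technical.

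Peaks overlapping by at least 1 bp were chained into shared peaks and placed at the replicate 1 summit. They were assigned to protein-coding genes, with Python 3.11.15 and pandas 2.3.3. Pairing and assignment were tested on simulated single pairs of short peaks at genes that did not overlap. Longer chains, the length limit and overlapping genes were not tested. Genes came from RefSeq GRCm38.p6, the mm10 build, without 340 of 49943 that start below 3 Mb on chromosomes other than Y. No exon annotation or genome sequence was used, so the motif search planned for the peaks was limited to promoters. Genes named are Cd47, Mecom, listed genes with a narrow shared peak, protein-coding neighbours, genes with exactly 4 such peaks and Hoxa5. Others were named after their values were seen. A gene of the MECOM list is not reported here and is left out of its count, so that count covers only part of the list. The members and lists were chosen with earlier results of these data known. No test was run, because the members were chosen by the values described. Alternatives for pairing, threshold, length, assignment and single lists were tried.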

Additional observations from a re-analysis of the deposited data

How the results depend on the processing

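Requiring a larger reciprocal overlap (at least 50% of both peaks), a −log10 q of at least 5, no limit on length or placement at the replicate 2 summit left 4 peaks at each gene. With summits within 100 bp required, Mecom kept 2, since peaks 1 and 2 were lost, and genes with at least 4 peaks fell from 10 to 6. With peaks of at most 500 bp, Cd47 and Mecom had 2 each, 575 genes had a peak and 1 gene had at least 4. Assigned within 10 kb or inside the gene only, Cd47 had 1 peak in either case and Mecom 3. Inside the gene only, 571 genes had a peak. Using a single list, Cd47 had 4 to 5 peaks and Mecom 4, while genes with a peak numbered 1384 to 2056 and genes with at least 4 numbered 22 to 70, against 1017 and 10 with both. The median summit distance of 8.5 bp ranged from 7 to 8.5 bp under the alternatives for pairing, threshold and length. It was 61 bp over the 4 peaks left within 10 kb or inside the gene only, settings added for this value after seeing the data. No paired analysis was possible because the inputs that share replicate numbers with the immunoprecipitates were not analysed here. The unknown depth limits how far a site missing from 1 list can be called unoccupied.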
